A study of Oryza sativa with 12 samples.

Results

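Transcripts of the aleurone were compared with those of the embryo in developing rice (Oryza sativa) seed, over all genes of a deposited count table. The groups were the 3 libraries whose column headers carry the letters for aleurone and the 3 that carry the letters for embryo, 6 of the 12 libraries of the series. Both came from untreated, field-grown plants of no stated genotype, and each library was made from 10 ng of total RNA. The series has 3 further libraries each of endosperm and pericarp, used here only to show levels. The cultivar, the age of the seeds, the way the tissues were separated and whether they came from the same seeds were not stated in the sources at hand. The libraries of a tissue are described as biological replicates, and the p-values below measure the spread between these libraries.

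The aleurone is the outermost cell layer of the cereal endosperm, and it stores oil and protein, stays alive when the grain dries, and secretes starch-degrading enzymes at germination. The embryo arises from the fertilised egg and holds the meristems, which are groups of dividing cells, and the scutellum, an organ that takes up reserves. The starchy endosperm inside the aleurone fills with starch and storage protein and dies as the grain matures, so that aleurone and embryo are the seed tissues that remain alive.

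The table held 37878 genes, of which 412 had a symbol. After a filter on low counts, 15151 genes were tested, 267 of them with a symbol. Total counts per library were 16005961, 5689112 and 13354433 in aleurone 1, 2 and 3 and 18169845, 14205388 and 15778331 in embryo 2, 3 and 4, where the numbers are those of the column headers. Aleurone 1, aleurone 2 and embryo 2 carried lane 6 in their headers, and the other 3 libraries lane 5.

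Aleurone libraries held fewer genes and put more of their counts into a few of them. A count was found for 13676, 8158 and 11599 genes in aleurone 1, 2 and 3, against 16733, 14326 and 16862 genes in embryo 2, 3 and 4. The means were 11144 ± 2787 genes in aleurone and 15974 ± 1428 in embryo (SD, n = 3 libraries each). The groups did not overlap, and an exact two-sided permutation test gave p = 0.1 (adjusted p = 0.1 over both measures of this paragraph), the smallest p that 3 libraries against 3 allow. With every library thinned to the 5689112 counts of aleurone 2, the means were 11082 genes in aleurone and 15883 in embryo. The 10 most abundant genes of each library took 23.2%, 30.04% and 42.1% of the counts in aleurone 1, 2 and 3, against 6.74%, 7.16% and 4.96% in embryo 2, 3 and 4 (31.8% ± 9.57 in aleurone and 6.29% ± 1.17 in embryo, SD, n = 3 each; exact permutation p = 0.1). Again no aleurone library reached into the range of the embryo libraries.

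Aleurone libraries also differed more among themselves. Spearman correlations of counts across the tested genes, which are not independent replicates, ran from 0.522 to 0.674 between aleurone libraries, from 0.813 to 0.881 between embryo libraries and from 0.350 to 0.589 between an aleurone and an embryo library. Aleurone 1 correlated more with each embryo library (0.589, 0.536 and 0.541 with embryo 2, 3 and 4) than with aleurone 2 (0.522). Aleurone 2 stood apart. It had no count for 3071 genes that held at least 50 counts in both other aleurone libraries, against 295 such genes for aleurone 1 and 599 for aleurone 3, and 288, 1399 and 291 for embryo 2, 3 and 4. Of the tested genes, 17.8%, 49.9% and 29.0% had no count in aleurone 1, 2 and 3, against 4.17%, 11.9% and 4.81% in embryo 2, 3 and 4. In such bulk samples fewer cells of a type and less RNA per cell cannot be told apart, and neither can a transcript missing from a library and a gene that is off.

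**Figure D1:**
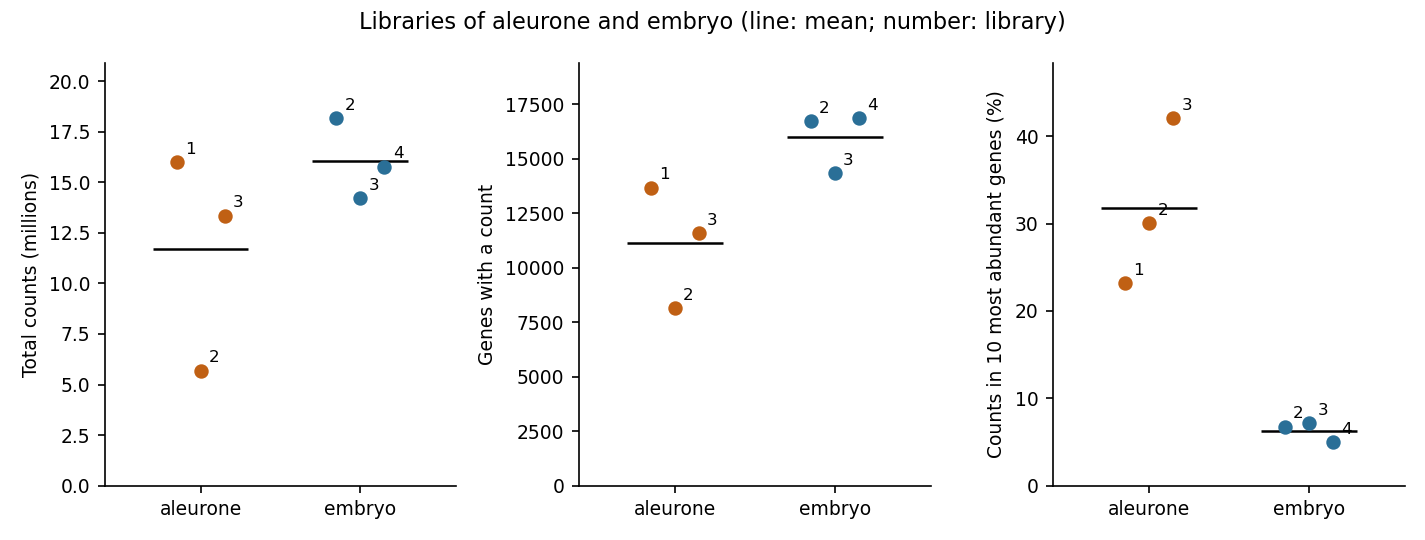
Total counts, number of genes with a count, and percent of counts in the 10 most abundant genes, for each of the 3 aleurone (left) and 3 embryo libraries (right); points are libraries, numbered as in the column headers, and lines are means. The 3 aleurone libraries lie below all 3 embryo libraries in genes counted (8158 to 13676 against 14326 to 16862) and above them in the share of the 10 most abundant genes (23.2% to 42.1% against 4.96% to 7.16%).

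Marker genes that could be matched by symbol went with the tissue labels only in part. Of 9 embryo markers, which code for meristem transcription factors and a mitotic cyclin, 5 were in the table, and their summed level was 12.3 to 29.9 CPM per aleurone library and 159 to 222 CPM per embryo library. CPM are counts relative to library size, corrected by the trimmed mean of M-values (TMM). CYCB2-1, OSH15 and WOX4 had no count in any aleurone library, while WOX5 was at 0 in all 3 embryo libraries and had 108 counts in aleurone 3 alone. OSH71 overlapped between the tissues, at 0 to 29.9 CPM in aleurone and 19.1 to 50.2 CPM in embryo. Of 3 aleurone markers only LTP, a lipid transfer protein, was matched, at 1022, 494 and 955 CPM in aleurone 1, 2 and 3 and at 47.2, 19.6 and 3.34 CPM in embryo 2, 3 and 4. Of 12 markers of the starchy endosperm only WAXY was matched, at 1108 to 2862 CPM in aleurone and 0.784 to 21.8 CPM in embryo. Of 3 oil body markers listed for both tissues, OLE18 and PXG were matched. Their summed level overlapped, at 1986 to 3095 CPM in aleurone and 1549 to 2612 CPM in embryo. None of the 5 markers of pericarp and green tissue was matched.

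The test between the tissues was edgeR's quasi-likelihood F test, with p-values adjusted after Benjamini and Hochberg over all tested genes. It called 388 genes, 2.56% of those tested, with a threshold of 0.05 on the adjusted p and of 2 on the fold. Of these 168 (1.11%) were higher in aleurone and 220 (1.45%) were lower, and 13 had a symbol, 5 higher and 8 lower. At an unadjusted p below 0.05 there were 2814 genes (18.6%), 765 higher and 2049 lower. Over all tested genes the median log2 fold change, aleurone over embryo, was -0.47 and 61.7% of the values were negative. Higher calls made up 43.3% of all calls with TMM scaling and 26.5% with scaling by library totals, which moved the median of all genes by -0.53. All 388 genes had the same sign within both lanes. Since these genes were chosen by the same libraries, this does not test an effect of lane. With lane as a covariate 27 genes were called.

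The number of calls rested on single libraries. It was 1191 without aleurone 1, 731 without aleurone 2, 81 without aleurone 3 and 0 without any 1 of embryo 2, 3 or 4, where 2687, 3365 and 2611 genes had an unadjusted p below 0.05. A fit of all 12 libraries called 73 genes (0.447%), 70 higher and 3 lower, while DESeq2 called 2566 genes on the 6 libraries. All 13 genes with a symbol lost their call without any 1 embryo library, 10 of them also without aleurone 3 (all but MCM3, H2B.2 and CYCB2-1) and WAXY also without aleurone 2. None of the 388 genes changed its direction in any of these fits where it was tested, but the genes were chosen by the same libraries.

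Genes called higher had high counts in aleurone. Their median level was 254 CPM in aleurone and 0.0644 CPM in embryo, and 36 of the 168 exceeded 1000 CPM in aleurone. They took 20.2%, 40.9% and 49.5% of the counts of aleurone 1, 2 and 3, against 0.704%, 0.855% and 0.593% of those of embryo 2, 3 and 4. The 10 genes with the highest mean level in aleurone included 8 of the 168. On the scale of all 12 libraries, these 8 had a higher mean in endosperm than in aleurone, all but BGIOSGA033746 (19607 CPM in aleurone and 700 CPM in endosperm). The most abundant, BGIOSGA004500, had 85895 CPM in aleurone and 164668 CPM in endosperm. Each of the 168 had a count in every aleurone library, and 51 had none in any embryo library.

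Genes called lower were of moderate level in embryo and mostly had no count in aleurone. Of the 220, 150 had no count in any aleurone library and 31 had a count in all 3, and the median level was 0 CPM in aleurone and 67.1 CPM in embryo. In aleurone 1, 2 and 3, 172, 177 and 177 of the 220 were at 0, and each of the 220 was counted in every embryo library. Of all tested genes, 1418 had no count in any aleurone library and 177 had none in any embryo library. In 13 of the 220 the level in embryo was only 1.06 to 2.65 CPM, and in the others it was 31.5 CPM or more.

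**Figure D2:**
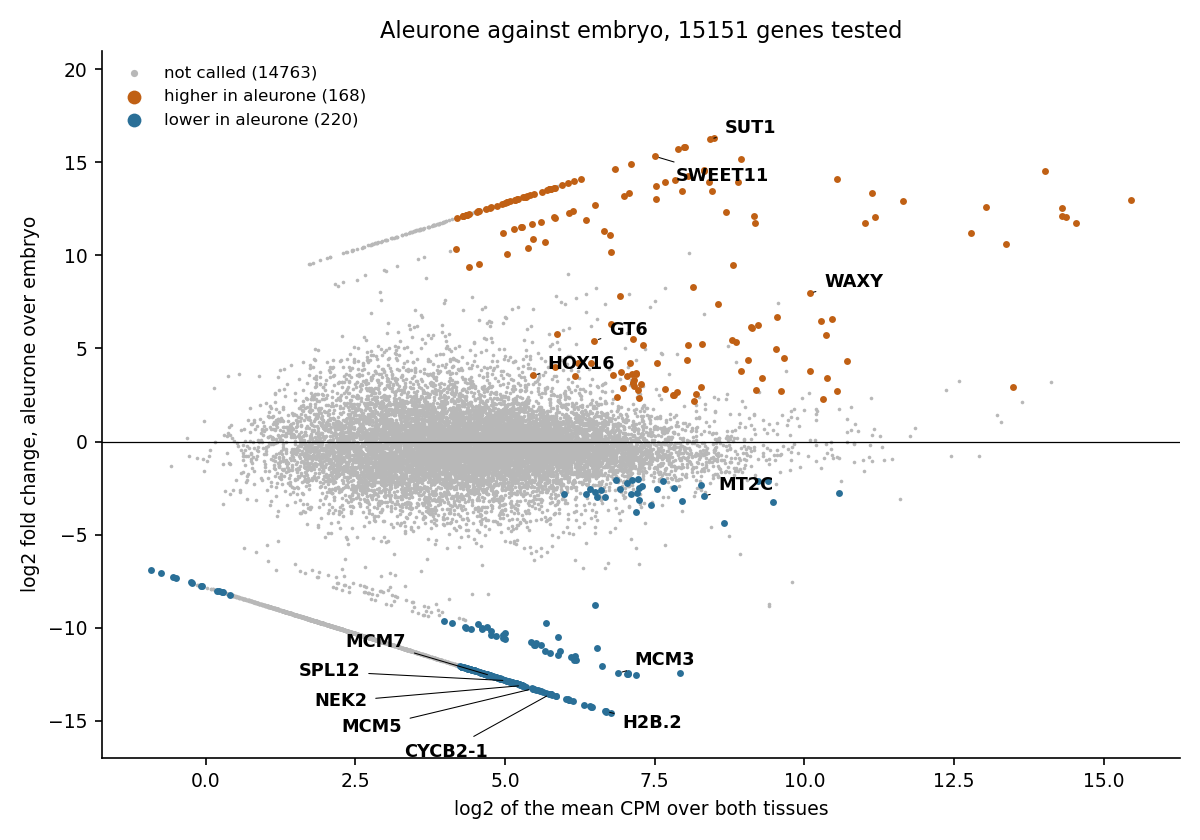
Log2 fold change, aleurone over embryo, against the log2 of the mean CPM over both tissues for the 15151 tested genes; orange points are the 168 genes called higher in aleurone, blue points the 220 called lower and grey points the rest, and the 13 called genes with a symbol are labelled. Genes with no count in any library of a tissue form the straight diagonal edges, where the fitted fold depends on a small added count.

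The sucrose carriers SUT1 and SWEET11 were higher in aleurone, where every library counted them, and had no count in embryo. SUT1 imports sucrose into cells together with protons, and SWEET11 lets sucrose leave cells down its gradient. SUT1 (chromosome 3, 4249429 to 4255303) had 226, 996 and 835 CPM in aleurone 1, 2 and 3, against 0 in embryo 2, 3 and 4. SWEET11 (chromosome 8, 28419731 to 28421978) had 187, 433 and 470 CPM in aleurone 1, 2 and 3, against 0 in all 3 embryo libraries. Aleurone 1 was the lowest aleurone library for both.

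SUT1 averaged 686 ± 406 CPM in aleurone (SD, n = 3), at least 12941-fold higher than the embryo floor of 0.0530 CPM, which is 3 counts over the 3 embryo libraries. SWEET11 averaged 363 ± 154 CPM in aleurone, at least 6859-fold higher than that floor. Floors cover counting error only. The adjusted p was 0.0180 for SUT1 and 0.0115 for SWEET11 (edgeR). In the fit of all 12 libraries it was 0.0183 for SUT1 and 0.0300 for SWEET11. Both lost the call with lane as a covariate, and SWEET11 also lost it in the fit of 9 libraries without pericarp.

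The other tested sugar genes were not called. The list of sugar transport and invertase genes had 16 members in the table and 6 tested, of which 2 were higher and 0 lower, where 1.11% of all tested genes were higher. The median log2 fold change was 1.29 beside -0.47 over all genes. SWEET4, a further sugar carrier, averaged 20.5 ± 14.9 CPM in aleurone and 6.71 ± 2.51 CPM in embryo, SWEET15 15.4 ± 14.8 CPM in aleurone and 17.7 ± 6.70 CPM in embryo, and SUT4, a sucrose transporter, 19.0 ± 17.7 CPM in aleurone and 31.4 ± 9.40 CPM in embryo. The cell wall invertase gene CIN2, whose product splits sucrose outside the cell, had 0, 126 and 28.7 CPM in aleurone and 3.90, 35.4 and 39.4 CPM in embryo. Its groups overlapped and its aleurone libraries ran from no count to the highest value of all 6.

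WAXY (chromosome 6, 1931535 to 1935014), whose product builds the amylose of starch granules, was higher in aleurone. It had 1108, 2530 and 2862 CPM in aleurone 1, 2 and 3, against 3.33, 21.8 and 0.784 CPM in embryo 2, 3 and 4. The groups lay far apart, and the embryo libraries differed among themselves by more than the aleurone libraries in relative terms. The log2 fold change was 7.97 ± 1.47 (SE; edgeR adjusted p = 0.0482), which is close to the threshold. In the endosperm libraries, on the scale of all 12 libraries, WAXY averaged 58538 ± 31173 CPM, against 2101 ± 874 CPM in aleurone and 7.96 ± 10.4 CPM in embryo (SD, n = 3 each). The part that RNA of starchy endosperm has in the aleurone libraries was not tested.

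GT6 and HOX16 were the other 2 genes with a symbol that were higher in aleurone. GT6 (chromosome 11, 16970748 to 16972199) had 50.6, 236 and 241 CPM in aleurone, against 4.42, 3.22 and 4.70 CPM in embryo, and its log2 fold change was 5.41 ± 0.77 (SE; edgeR adjusted p = 0.0257). HOX16, a homeodomain-leucine zipper (HD-Zip) transcription factor (chromosome 2, 32323955 to 32325316), had 113, 73.8 and 58.0 CPM in aleurone, against 6.23, 8.20 and 6.32 CPM in embryo, and its log2 fold change was 3.56 ± 0.61 (adjusted p = 0.0410). Unlike the sucrose carriers, both were counted in every embryo library. Of the 19 other settings, which include adjusted p alone, the main fit without its fold threshold, GT6 was called in 11 and HOX16 in 8. Neither was called in the fit of all 12 libraries (adjusted p = 0.172 for GT6 and 0.690 for HOX16), in limma voom (0.214 for GT6 and 0.0608 for HOX16), or with lane or the replicate number in the fit.

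**Figure D3:**
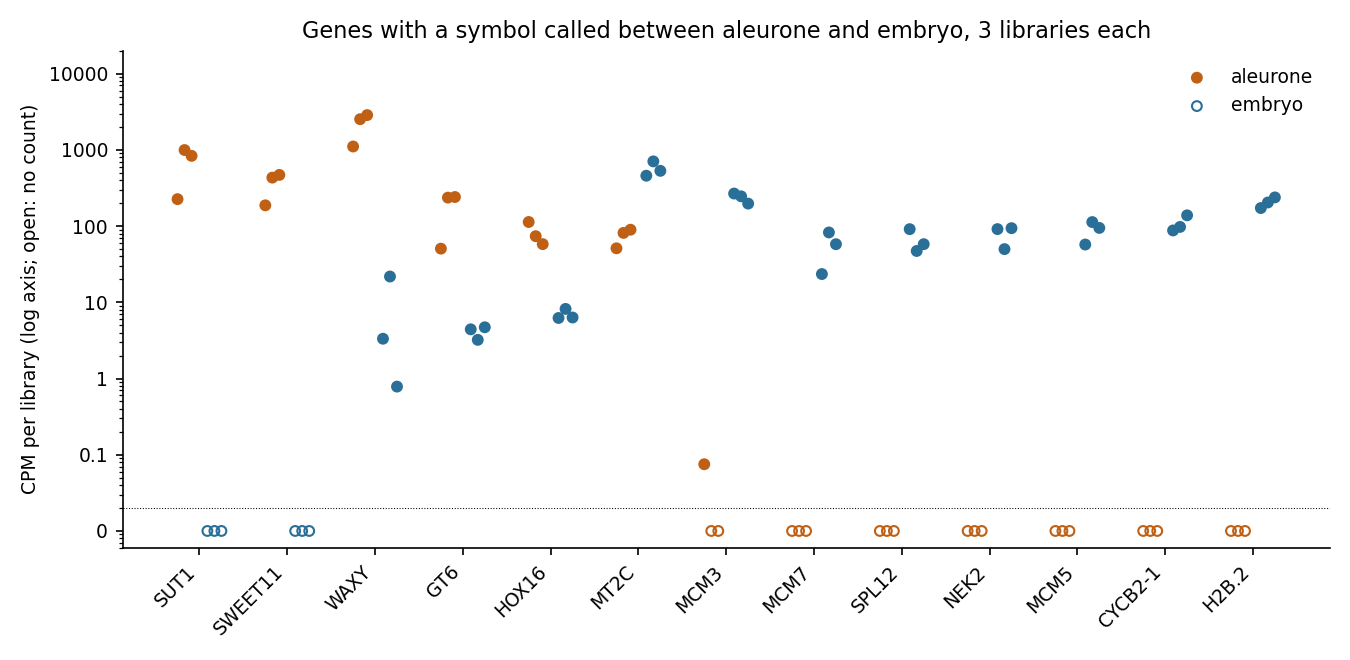
Level of the 13 called genes with a symbol in each library, in CPM on a log axis, with the 3 aleurone libraries (orange) left of the 3 embryo libraries (blue) for each gene; open points below the dotted line are libraries without a count. In 2 of the 5 genes called higher no embryo library has a count, and in 6 of the 8 called lower no aleurone library has one.

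Genes of DNA replication and cell division were lower in aleurone or not called, and none was higher. The list had 17 members, all tested, of which 5 were lower and 0 higher, where 1.45% of all tested genes were lower. The median log2 fold change was -1.64 beside -0.47 over all genes, and 13 of 17 values were negative, which became 15 with scaling by library totals. Over all tested genes 61.7% of the values were negative with TMM and 73.4% with library totals. MCM3, MCM5 and MCM7 code for subunits of the helicase that opens DNA at replication forks, CYCB2-1 for a B-type cyclin of mitosis and NEK2 for a protein kinase of a family named for its part in mitosis.

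MCM3 (chromosome 5, 24847361 to 24851976) had 1, 0 and 0 counts in aleurone 1, 2 and 3, against 5625, 4049 and 3779 counts in embryo 2, 3 and 4. Its level was 0.0250 ± 0.0434 CPM in aleurone and 237 ± 35.9 CPM in embryo. MCM3 fell by 12.45 ± 0.90 in log2 terms (SE; edgeR adjusted p = 0.00996), and the ratio of embryo over aleurone was 6678 with a 95% counting interval of 1198 to 263781. With lane as a covariate, a fit that called 27 genes in all, MCM3 was the only gene with a symbol that was still called. In the fit of all 12 libraries it was not called (adjusted p = 0.172), nor was any other of the 8 lower genes with a symbol.

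The other 4 had no count in any aleurone library. CYCB2-1 had 87.7, 97.6 and 139 CPM in embryo 2, 3 and 4, which makes it at least 1011-fold lower in aleurone than in embryo by the aleurone floor of 0.107 CPM (adjusted p = 0.0178, edgeR). MCM5, with 57.3, 113 and 94.7 CPM in embryo, was at least 828-fold lower in aleurone (adjusted p = 0.0211). NEK2, with 91.3, 49.9 and 94.0 CPM in embryo, was at least 735-fold lower (adjusted p = 0.0237). MCM7 was the most variable of them, with 23.5, 82.6 and 57.9 CPM in embryo, and it was at least 512-fold lower (adjusted p = 0.0416).

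Not every member of the list had this pattern. FEN1a, a flap endonuclease that trims the lagging strand, had 22.3, 74.3 and 26.7 CPM in aleurone and 180, 59.7 and 145 CPM in embryo, so that its groups overlapped (log2 fold change -1.64 ± 0.69, adjusted p = 0.268). MCM6 averaged 4.48 ± 7.77 CPM in aleurone and 57.3 ± 44.3 CPM in embryo, and MCM9 had no count in aleurone and 12.8 ± 1.18 CPM in embryo (adjusted p = 0.0641). RBR1, a retinoblastoma-related regulator of cell cycle entry, averaged 46.3 ± 45.1 CPM in aleurone and 100.3 ± 10.7 CPM in embryo. The cyclin-dependent kinases CDKG-2, CDKG-1, CDKF-1 and CDKD-1 had log2 fold changes of -0.10 to 0.67, and KRP1, an inhibitor of such kinases, one of 1.61 ± 1.96 (adjusted p = 0.872).

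Histone H2B genes, whose products wrap DNA into nucleosomes, had 10 tested members, 1 lower and 0 higher, where 1.45% of all tested genes were lower. The median log2 fold change was -2.72, and 9 of the 10 values were negative beside 61.7% over all tested genes. H2B.2 (chromosome 8, 25899695 to 25900147) had no count in any aleurone library, against 173, 204 and 238 CPM in embryo 2, 3 and 4. It was at least 1920-fold lower in aleurone than in embryo (adjusted p = 0.0102, edgeR). H2B.6 had 18.03, 0 and 72.6 CPM in aleurone and 201, 254 and 204 CPM in embryo (adjusted p = 0.504). H2B.11 averaged 7.04 ± 6.65 CPM in aleurone and 105 ± 27.5 CPM in embryo (adjusted p = 0.133), and H2B.4, the member with a positive value, 33.7 ± 40.2 CPM in aleurone and 16.5 ± 10.1 CPM in embryo. The H2B copies are near-identical in their coding parts, so that the split of reads among them is uncertain.

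Genes that load and modify histones were not called, where 2.56% of all tested genes were. The list of nucleosome assembly and histone modification genes had 10 tested members with a median log2 fold change of -1.27 and 9 negative values, 10 with scaling by library totals, beside 61.7% and 73.4% negative over all tested genes. NAP1;2, a histone chaperone, had 145, 71.3 and 117 CPM in aleurone and 305, 430 and 469 CPM in embryo (log2 fold change -1.85 ± 0.41, adjusted p = 0.0636). NAP1;1 had 110, 115 and 122 CPM in aleurone and 214, 294 and 313 CPM in embryo (-1.24 ± 0.33, adjusted p = 0.0654). In both every aleurone library lay below every embryo library, as in 26.8% of all tested genes.

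Of the transcription factors, SPL12 was lower in aleurone. SPL12 is a SQUAMOSA promoter-binding-like factor (chromosome 6, 31553631 to 31556852), with no count in any aleurone library and 91.2, 47.2 and 58.0 CPM in embryo 2, 3 and 4, at least 613-fold lower in aleurone (adjusted p = 0.0277, edgeR). The list of other transcription factors had 14 tested members, 1 lower and 0 higher, with a median log2 fold change of -0.29. Over all tested genes 1.45% were lower, 1.11% were higher and the median was -0.47. SPL15, of the same family, had 151, 106 and 101 CPM in aleurone and 125, 86.5 and 99.4 CPM in embryo, and its groups overlapped.

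Homeobox genes, many of which act in meristems and leaf formation, showed mixed values. Of the KNOX and WOX genes 4 were tested and 0 called, where 2.56% of all tested genes were called. OSH15, a KNOX gene of shoot meristems, had no count in aleurone and 22.5, 34.9 and 34.0 CPM in embryo (adjusted p = 0.0595, edgeR). WOX4 had no count in aleurone and 5.09, 7.17 and 6.22 CPM in embryo (adjusted p = 0.0641), while OSH71 had 18.7, 29.9 and 0 CPM in aleurone and 50.2, 19.1 and 43.0 CPM in embryo. OSH15 and WOX4 were thus counted in every embryo library and in no aleurone library, and neither passed the test. Of the 15151 tested genes 1418 had no count in any aleurone library, and in 26.8% every aleurone library lay below every embryo library.

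Of the HD-Zip genes 10 were tested, with 1 higher (HOX16), 0 lower and a median log2 fold change of -1.09. Over all tested genes 1.11% were higher, 1.45% were lower and the median was -0.47. HOX33, of the class III factors that act in meristems and leaf polarity, had 0, 0 and 16.0 CPM in aleurone and 283, 263 and 314 CPM in embryo (log2 fold change -5.75 ± 2.20, adjusted p = 0.211, edgeR). HOX32, of the same class, had 15.2, 0 and 22.5 CPM in aleurone and 222, 220 and 250 CPM in embryo (-4.19 ± 1.52, adjusted p = 0.181). In both the aleurone libraries lay below the embryo libraries, as in 26.8% of all tested genes, and HOX33 was called without aleurone 3.

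MT2C, a metallothionein, which is a small cysteine-rich protein that binds metal ions (chromosome 5, 610754 to 611232), was lower in aleurone and yet present in every library. It had 51.1, 81.4 and 89.7 CPM in aleurone 1, 2 and 3, against 458, 707 and 531 CPM in embryo 2, 3 and 4. MT2C fell by 2.93 ± 0.40 in log2 terms (SE; edgeR adjusted p = 0.0236), and the differences within the lanes were -2.75 in lane 5 and -2.79 in lane 6, as log2 of CPM plus 2.

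The list of redox and metallothionein genes had 6 tested members, 1 lower and 0 higher, where 1.45% of all tested genes were lower and 1.11% higher. MT3A, of another metallothionein type, averaged 72.9 ± 57.9 CPM in aleurone and 7.32 ± 3.32 CPM in embryo (log2 fold change 3.31 ± 1.03, adjusted p = 0.107, edgeR). APX1, an ascorbate peroxidase that removes hydrogen peroxide, had 15.5, 14.3 and 53.3 CPM in aleurone and 147, 291 and 242 CPM in embryo (-3.03 ± 0.68, adjusted p = 0.0641). CATB, a catalase, had 289, 211 and 254 CPM in aleurone and 190, 137 and 149 CPM in embryo (0.66 ± 0.33, adjusted p = 0.400). Members of this list thus had values in both directions.

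The tested genes of oil bodies and of protection against drying were not called, where 2.56% of all tested genes were. OLE18, an oleosin that coats oil bodies (chromosome 3, 32134440 to 32134958), had 1913, 2592 and 3059 CPM in aleurone and 1685, 2608 and 1549 CPM in embryo, and its log2 fold change was 0.37 ± 0.41 (edgeR adjusted p = 0.844). LEA19, a late embryogenesis abundant protein (chromosome 5, 28307568 to 28308474), had 3751, 327 and 1891 CPM in aleurone and 1547, 1999 and 604 CPM in embryo, and its log2 fold change was 0.52 ± 0.87 (adjusted p = 0.922). A p that misses the threshold does not show that the tissues have the same level.

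RAB16C and RAB16D, dehydrins that are induced by abscisic acid and drying, were not called either. RAB16C had 385, 0.166 and 294 CPM in aleurone and 392, 282 and 127 CPM in embryo, so that aleurone 2, the library that lacked many genes, stood apart from the other 5. PXG, a peroxygenase of oil bodies, averaged 40.6 ± 30.4 CPM in aleurone and 2.64 ± 2.42 CPM in embryo (log2 fold change 3.94 ± 1.90, adjusted p = 0.376, edgeR).

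Lipid transfer protein genes, whose products carry lipids in the cell wall space, had 5 tested members and 0 calls, where 2.56% of all tested genes were called. LTP (chromosome 12, 916286 to 916774) averaged 824 ± 287 CPM in aleurone and 23.4 ± 22.2 CPM in embryo, and every aleurone library lay above every embryo library, as in 8.82% of all tested genes. Its log2 fold change was 5.14 ± 1.02 (adjusted p = 0.0553, edgeR), just above the threshold of 0.05. LTP110-A_2, with no count in aleurone and 24.9, 30.4 and 32.2 CPM in embryo (adjusted p = 0.0601), had the opposite pattern. LTP110-A_1, listed under the same symbol, had 4.88, 0 and 0 CPM in aleurone and 38.5, 42.7 and 53.0 CPM in embryo.

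Hormone genes gave no call among 4 tested genes of abscisic acid and gibberellin, 10 of auxin and tryptophan, 6 of jasmonate, 6 of cytokinin signalling and 3 ethylene receptors. With 2.56% of all tested genes called, so few genes could have no call without differing from the rest. SAPK2 and SAPK3, kinases of stress and abscisic acid signalling, averaged 42.7 ± 19.5 and 68.7 ± 49.6 CPM in aleurone, against 88.8 ± 14.6 and 68.1 ± 23.4 CPM in embryo. DAO, a dioxygenase that inactivates auxin by oxidation, averaged 60.8 ± 37.2 CPM in aleurone and 2.78 ± 2.86 CPM in embryo (log2 fold change 4.44 ± 1.204, adjusted p = 0.0681, edgeR). ARF23, an auxin response factor, had 150, 47.3 and 97.7 CPM in aleurone and 353, 333 and 299 CPM in embryo (-1.74 ± 0.48, adjusted p = 0.0727). DAO and ARF23 differed in direction, and neither was called.

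Growth and housekeeping lists also held no called gene, where 2.56% of all tested genes were called. All 9 tested ribosomal and translation genes had negative values, with a median log2 fold change of -1.13, and all 6 cytoskeleton genes did, with a median of -3.56, each in all 3 scalings. Over all tested genes the median was -0.47, and 61.7% of the values were negative with TMM and 73.4% with library totals. VLN1, a villin that bundles actin, had 0, 0.166 and 6.50 CPM in aleurone and 120, 81.2 and 123 CPM in embryo (-5.59 ± 1.92, adjusted p = 0.152, edgeR). ACT1, an actin, had 67.1, 140 and 180 CPM in aleurone and 281, 322 and 343 CPM in embryo (-1.29 ± 0.44, adjusted p = 0.150). In both genes the embryo libraries were all above the aleurone libraries, as in 26.8% of all tested genes.

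None of the 5 tested calmodulin genes with a symbol was called, and neither was HSP81-1, the 1 tested member of the chaperone list. With 2.56% of all tested genes called, so few genes could have no call without differing from the rest. In CAM2 and HSP81-1 every aleurone library lay below every embryo library, as in 26.8% of all tested genes. Calmodulins, which bind calcium, had 5 tested members with 4 negative values and a median log2 fold change of -1.27. Over all tested genes 61.7% of the values were negative and the median was -0.47. CAM1-1_3 went the other way, with 41.2, 68.3 and 114 CPM in aleurone and 5.09, 21.4 and 35.1 CPM in embryo (1.86 ± 0.85, adjusted p = 0.331, edgeR). CAM2 had 168, 260 and 149 CPM in aleurone and 438, 458 and 494 CPM in embryo (-1.27 ± 0.35, adjusted p = 0.0722, edgeR). HSP81-1, a chaperone of the HSP90 family, had 278, 615 and 885 CPM in aleurone and 2338, 3235 and 2076 CPM in embryo (-2.11 ± 0.52, adjusted p = 0.0641).

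Magnesium transporters had 4 tested genes and a median log2 fold change of 1.61. Inositol phosphate kinases, which act in making phytate, the phosphate store of seeds, had 7 tested genes and a median of 1.07. Neither list had a call, where 2.56% of all tested genes were called and their median was -0.47. MRS2-I, a magnesium transporter, had 148, 139 and 97.1 CPM in aleurone and 20.9, 16.5 and 40.8 CPM in embryo (2.30 ± 0.53, adjusted p = 0.0641, edgeR). IPK1, of the second list, had 227, 305 and 310 CPM in aleurone and 138, 110 and 154 CPM in embryo (1.07 ± 0.34, adjusted p = 0.113). In both genes every aleurone library lay above every embryo library, as in 8.82% of all tested genes.

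In some genes the difference was smaller than its standard error. The autophagy genes ATG8A and ATG8C, whose products sit on the membrane that engulfs cell contents, had log2 fold changes of 0.02 ± 0.44 and 0.00 ± 0.60. PDC2, a pyruvate decarboxylase of fermentation, had 727, 768 and 723 CPM in aleurone and 841, 1017 and 726 CPM in embryo (-0.22 ± 0.31, adjusted p = 0.898, edgeR). CHI, a chalcone isomerase of flavonoid synthesis, averaged 132 ± 69.6 CPM in aleurone and 132 ± 37.4 CPM in embryo. CHS1, the chalcone synthase before it in the pathway, had no count in aleurone and 45.7, 19.2 and 2.30 CPM in embryo (adjusted p = 0.0730).

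**Figure D4:**
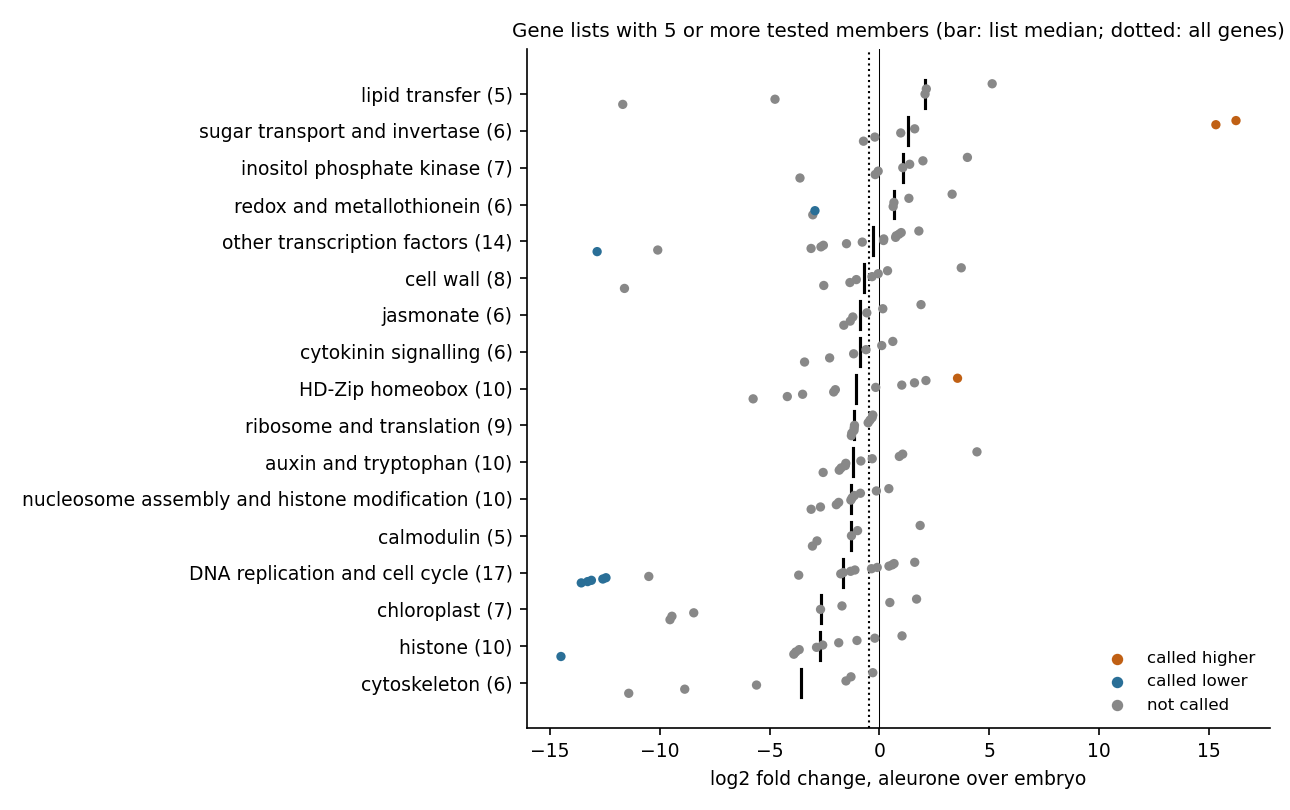
Log2 fold change, aleurone over embryo, of each tested member of the gene lists with at least 5 tested members; black bars are list medians, the dotted line is the median of all tested genes (-0.47), and orange and blue points are genes called higher and lower. The called genes lie at the far right for sugar transport and at the far left for DNA replication, histones and other transcription factors, and most list members are grey.

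Most called genes had no symbol and are given by position. Several of those of at least 50 CPM tied at the lowest adjusted p, and within that tie BGIOSGA024604 (chromosome 7, 6463329 to 6463811) and BGIOSGA024607 (chromosome 7, 6405999 to 6406472) had the lowest unadjusted p of the higher genes. BGIOSGA024604 had 1875, 5025 and 6597 CPM in aleurone, against 0.523, 0.364 and 0.366 CPM in embryo (log2 fold change 13.36 ± 0.88, adjusted p = 0.00996, edgeR). BGIOSGA024607 had 857, 975 and 1603 CPM in aleurone, against 0.238, 0.425 and 0.105 CPM in embryo (12.10 ± 0.80, adjusted p = 0.00996). On the other side, BGIOSGA005790 (chromosome 2, 30630701 to 30637571) had 0, 0.166 and 0.114 CPM in aleurone, against 349, 499 and 601 CPM in embryo, and BGIOSGA000518 (chromosome 1, 39470485 to 39471228) had 0, 0 and 0.114 CPM in aleurone, against 262, 197 and 341 CPM in embryo.

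Both unnamed higher genes lay in a stretch of chromosome 7 from 6342458 to 6504931 in which 8 of 9 tested genes were called higher. Levels there were 47.3 to 4499 CPM in aleurone and 0.0563 to 1.25 CPM in embryo, and all 8 were still higher in endosperm, at 4136 to 25051 CPM on the scale of all 12 libraries. A second stretch, on chromosome 2 from 9370885 to 9436322, had 5 of 6 tested genes called higher, at 366 to 42344 CPM in aleurone and 0.0202 to 9.86 CPM in embryo, and all 5 were above their aleurone level in endosperm. Of stretches with at least 3 called genes no more than 100 kb apart there were 3 with higher and 2 with lower genes. Each stretch was drawn from its first to its last called gene, so that a high share of called genes inside it is built in. Genes called higher were 1.11% of all tested genes, 2.04% of those on chromosome 7 and 1.65% of those on chromosome 2. Whether such neighbours are near-identical copies that share reads was not tested.

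The called genes of the 2 directions had different levels in the other tissues. Of the 168 genes called higher, 93 had their highest mean in endosperm, 67 in aleurone and 8 in pericarp, and their median level was 248 CPM in aleurone, 0.0596 in embryo, 199 in endosperm and 119 in pericarp on the scale of all 12 libraries. In 18 of the 168 the endosperm level was over 10 times that of aleurone, in 49 the aleurone level was over 10 times that of endosperm, and 101 lay in between. Of the 220 genes called lower, 213 had their highest mean in embryo. These are descriptions, since the genes were chosen by the same aleurone and embryo libraries. That choice itself keeps genes called higher from peaking in embryo and genes called lower from peaking in aleurone. The same shares over all tested genes are not given here.

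SUT1 and SWEET11 belonged to the genes with little signal in endosperm. SUT1 averaged 668 ± 405 CPM in aleurone, 0 in embryo, 4.36 ± 5.96 in endosperm and 246 ± 76.2 in pericarp (SD, n = 3 each). SWEET11 averaged 353 ± 146 CPM in aleurone, 0 in embryo, 2.37 ± 3.94 in endosperm and 438 ± 247 in pericarp. WAXY and the genes of the chromosome 7 stretch had the opposite order, with endosperm above aleurone. The pericarp and endosperm columns were matched to their tissues by letters of the header and by elimination.

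**Figure D5:**
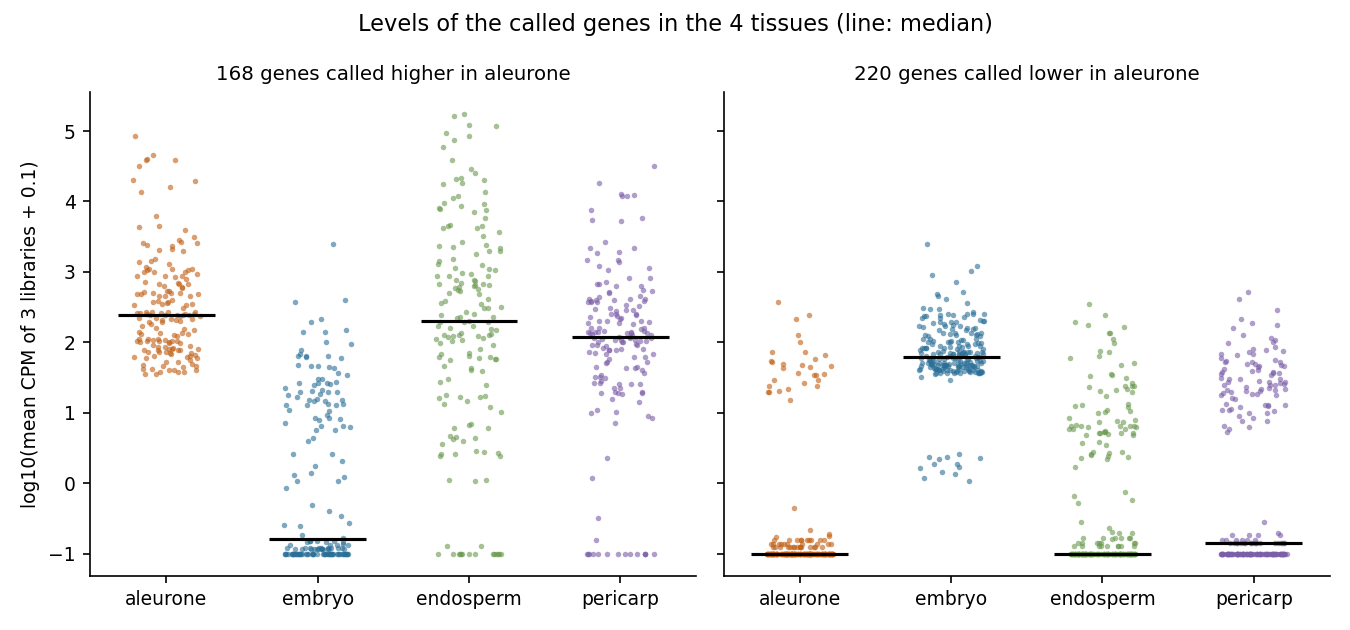
Mean level over 3 libraries, as log10 of CPM plus 0.1, in aleurone, embryo, endosperm and pericarp of the 168 genes called higher in aleurone (left panel) and the 220 called lower (right panel); points are genes and lines are medians. The genes called higher had a median of 248 CPM in aleurone and 199 CPM in endosperm against 0.0596 CPM in embryo, and the genes called lower are high in embryo and mostly at or near 0 elsewhere.

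Genes seen in every library of one tissue and in none of the other were fewer in aleurone than in embryo. A count in all 3 libraries was found for 6310 genes in aleurone and for 12829 in embryo, and 5634 genes were counted in all 6. There were 186 genes counted in all 3 aleurone libraries and in no embryo library, against 1483 counted in all 3 embryo libraries and in no aleurone library. With every library thinned to 5689112 counts the numbers were 212 and 1503, and without aleurone 2 they were 344 and 1674.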

How the data were processed

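The deposited table held total read counts per gene and library as whole numbers, not normalized, per the file headers. The authors' RPKM, TPM and CPM columns beside them were not used, and the CPM computed here are not corrected for gene length, so that an order of genes by CPM is one of counts. The aligner, genome build, annotation and strand setting are not given here by any label or header. Columns were matched to tissues by header letters, and 36 columns of per-sample values were not used. Numbers in the headers are not those of the sample titles. Symbols and coordinates came from the table, since the reference list matched none of its identifiers, and sequences were not used here.

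Counts of the 6 libraries were analysed in R 4.3.3 with edgeR 4.0.16. Genes were kept by filterByExpr (minimum count 10), scaled by TMM and tested with glmQLFit and glmQLFTest with tissue as the only term, aleurone over embryo. Common dispersion was 1.87 (biological coefficient of variation 1.37). Calls needed a Benjamini-Hochberg adjusted p below 0.05 over all tested genes and a fold of at least 2. Each standard error is the size of the log2 fold change divided by the root of its F. The 6-library fit was preferred to that of all 12 because pericarp libraries spread far more, with the knowledge that it calls more genes.

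The comparison, lists and tests were chosen with earlier results of these data known. Of 33 lists with 284 genes, 25 were set as symbol patterns and 8 were added once the symbols had been seen. Lists hold only genes with a symbol, so that no statement on a list covers called genes without one. Lists are described by counts and medians without a test. Genes named were drawn from those called with a symbol at 20 CPM or more and the 5 most abundant with a symbol per tissue. They were also drawn from the 3 most abundant of each list, list members at 0 in one tissue and 2 identifiers per direction. Not every gene of these groups is named, and GAPC, ADH1, CESA1 and FH2 are among those left out. Further list members were chosen after their values were seen, as were the identifiers named among the most abundant aleurone genes. A fold against a tissue without counts uses a floor of 3 counts over its libraries. Floors and 95% intervals cover counting error only, since reads without molecular identifiers are not independent molecules. Numbers of genes and shares of counts were compared by exact permutation tests. Values on the scale of all 12 libraries use TMM factors of those libraries. Alternatives were other fits (DESeq2 1.42.0, limma 3.58.1 voom), scalings, filters, lane, replicate block and leaving out each library.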

Additional observations from a re-analysis of the deposited data

How the results depend on the processing

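The 388 calls depended on the fit. All 12 libraries gave 73 calls (70 higher, 3 lower, 68 of the 388 among them), 9 libraries without pericarp 213, DESeq2 2566, limma voom 2690, voom with sample weights 2423, and lane as a covariate 27. Leaving out a library gave 0 to 1191 calls. DESeq2 size factors (379), library totals (578), no filter (458), 10 counts in 3 libraries (388), adjusted p alone (388) and thinning to the smallest total (342, added after the data were seen) stayed within 1.5 times of 388, but library totals split into 153 higher and 425 lower calls, against 168 and 220. All 388 genes kept their sign wherever they were tested, which is no independent support, since they were chosen by the same libraries. The differences in genes counted and in the share of the most abundant genes kept their direction in every alternative. Aleurone and embryo libraries of the same header number, 2 and 3, had correlations of deviations of -0.04 and -0.00076. Pairs of unlike number had -0.033 to 0.059. With 3 libraries per tissue such values cannot show whether libraries were paired. A block on the header number gave 57 calls (45 higher, 12 lower), among them SUT1, SWEET11 and MCM3. Number 1 occurred only in aleurone and number 4 only in embryo, so that only numbers 2 and 3 compared the tissues in this fit. Why the counts differ was not tested. Genes without a count in aleurone are limited by depth and by the genes that single libraries lack.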
